A study of Rattus norvegicus with 60 samples.

Results

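This section describes 47 rat genes of lipid and cholesterol synthesis and transport, measured in the lungs of rats that had breathed crystalline silica or air. The genes were chosen from textbook pathways and taken by symbol, or by current name through the gene identifier. They were chosen with earlier results of these data known, so their counts beside those of all genes are not an independent test. A row was kept if its bead signal was detected at a detection p-value under 0.05 on at least 4 lungs, and the brightest row stood for the gene. Of the 47 genes 41 had a row, and 40 were detected and tested among 13918 genes in all. Mvk, Lss, Insig1, Fasn, Elovl1 and Fabp5 were not analysed here, and Elovl6 was detected on 0 of 60 arrays. The tested genes were 9 of 11 of sterol synthesis, 6 of 7 regulators, 7 of 10 of fatty acid synthesis, all 8 of acyl-CoA activation and glycerolipid synthesis, 5 of 6 of uptake and storage, and all 5 of efflux and lipoproteins.

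The animals were 60 male CDF Fisher 344 rats of about 3 months of age. They inhaled silica at 15 mg per cubic metre, or filtered air, for 6 hours a day on 5 days, and lungs were taken after 1, 2, 4, 8 or 16 weeks. Each week had 8 silica rats and 4 air rats, each hybridised to 1 Illumina expression BeadChip array, a glass chip whose bead-bound probes bind labelled cRNA. No rat was sampled at more than 1 time, so each week compares different animals with their own air controls.

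Cells make cholesterol from acetyl-CoA through the mevalonate pathway, which SREBP2 switches on when membrane sterol is scarce, while SREBP1 drives fatty acid synthesis and desaturation. Sterols in excess are esterified, stored in droplets, or exported by ABC transporters under the control of the LXR receptors. In the lung these pathways serve alveolar type II cells, which build phospholipid-rich surfactant, and alveolar macrophages, which take surfactant up and return its cholesterol through ABCG1.

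The arrays had median signals of 60.2 to 97.8 and 11225 to 12594 detected rows, and the number of arrays limits the precision. The 10 tested markers of type II cells had a mean log2 intensity of 12.40 to 12.93 per rat, and all 10 were detected on all 60 arrays. In silica rat 3 of week 4 the signals were displaced by 2 lines from line 17 on. They were moved back, which raised the correlation with the median array from 0.232 to 0.998. A further 5 silica arrays, called here those that stood apart, had the lowest scores on the main axis of variation within groups. They lay next to each other in the deposited table. Their scores were -0.39 to -0.215, and those of the other 55 arrays were -0.177 to 0.198. The number of 5 was set after the data were seen, and other neighbouring arrays also tended to share the sign of their score. The 5 arrays were rat 6 of week 1, rat 4 of week 2, rat 6 of week 4, rat 4 of week 8 and rat 3 of week 16. Their median signals were 85.5 to 97.8, against 60.2 to 87.0 on the other 55 arrays. The counts over the 40 genes, the roles and the wider lists in the mean of 5 weeks are also given without them, or were the same without them where no such count is given. Silica lungs also differed from air lungs in their markers of other cells. Across the 5 weeks 9 of 11 macrophage markers, 8 of 10 type II cell markers and 6 of 7 neutrophil markers were higher, while 5 of 7 type I cell markers and all 6 endothelial markers were lower (limma, adjusted p under 0.05). Among the macrophage markers 1, Cd163, was lower (-0.12, adjusted p = 0.0358). Cd163 was not called without the 5 arrays, and 5 neutrophil and 5 endothelial markers were. In whole lung, fewer cells of a type and less RNA per cell cannot be told apart.

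More lipid genes rose than fell after silica. A gene was called at a Benjamini-Hochberg adjusted p under 0.05 over all 13918 genes in limma, and differences are silica minus air in log2 intensity. In the mean of the 5 weekly differences 22 of 40 genes were called higher and 1, Apoe, lower. Of all genes 35.1% were called, 14.6% higher and 20.6% lower. These shares stand beside every later count of the main fit in that mean, by role or wider list. Shares of all genes without the 5 arrays that stood apart, or with other scaling or blocks, are not given here. The median difference was 0.12 over the 40 genes and -0.01 over all genes. Without the 5 arrays that stood apart, 23 genes were called, all higher, with Apoe at an adjusted p of 0.061.

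At single weeks the calls were fewer until week 16. At 1 week 8 genes were called, all higher, beside 3.82% of all genes (2.68% higher, 1.14% lower). At 2 weeks 10 were higher and 1 lower, beside 9.39% (4.79% and 4.61%). At 4 weeks 6 were higher and 1 lower, beside 6.62% (2.86% and 3.76%). At 8 weeks 11 were called, all higher, beside 8.92% (4.76% and 4.15%). By 16 weeks the calls came to 15 higher and 1 lower, beside 22.7% (10.5% and 12.2%). Without the 5 arrays these totals were 7, 11, 7, 9 and 16. Air rats decided several of them: the total at 1 week was 2 without air rat 3, 4 without air rat 4, and 5 without air rat 2 or without silica rat 1. The total was 6 at 2 weeks without air rat 3 or air rat 4, 3 at 4 weeks without air rat 4, and 5 at 8 weeks without air rat 3. Of the 53 weekly calls 25 were kept whichever rat was left out, and 19 were kept when each array was scaled to a common median in place of quantile normalization. That scaling left 1 higher at 1 week, 1 higher and 1 lower at 2 weeks, 2 higher and 1 lower at 4 weeks, 2 higher at 8 weeks, and 10 higher and 1 lower at 16 weeks. It left 15 higher and 3 lower in the mean of 5 weeks.

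**Figure D1:**
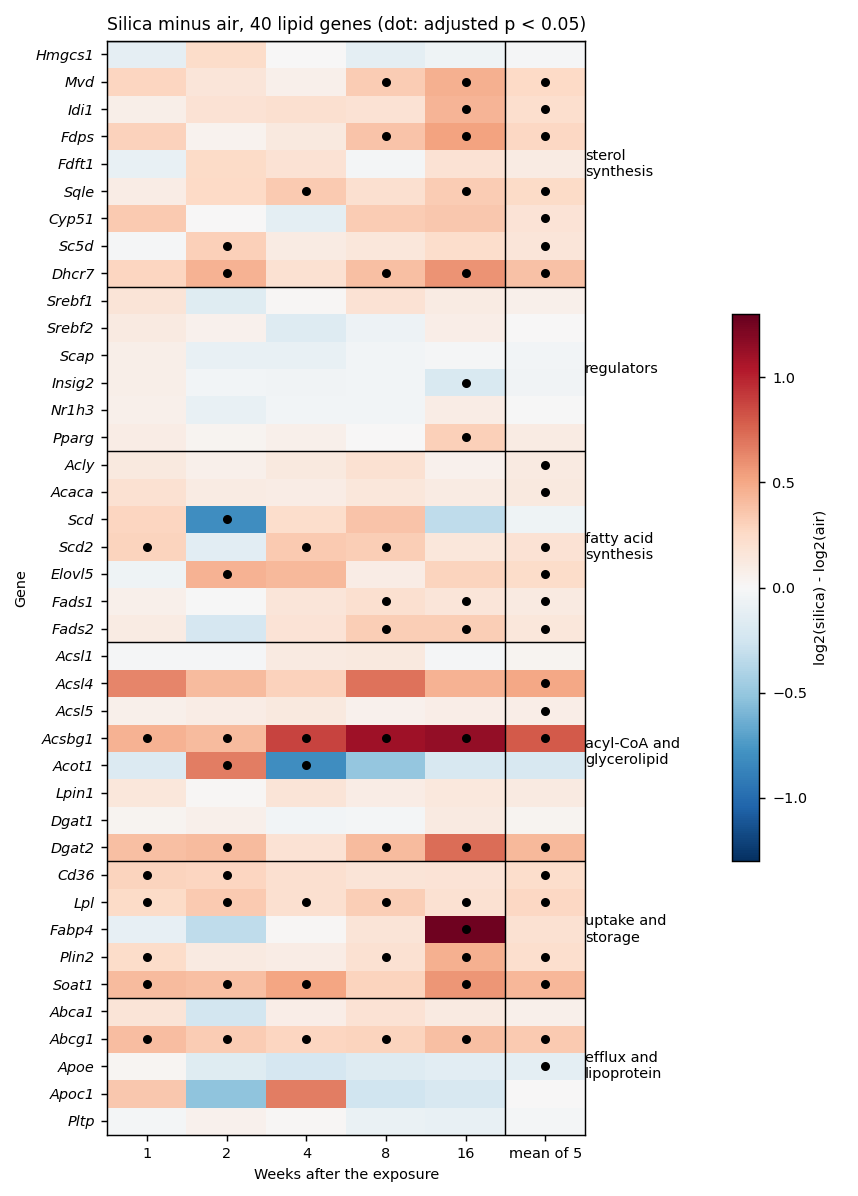
Difference between silica and air (colour, log2 intensity, silica minus air) of each of the 40 tested genes (rows, grouped by role) at the 5 times in weeks (columns), with a dot where the adjusted p was under 0.05. Acsbg1, Lpl and Abcg1 carry a dot in all 5 weeks, Scd is blue at 2 weeks, and Fabp4 is deepest red at 16 weeks with 1.27.

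Groups of rats that did not overlap at all were counted as well. Every silica rat lay above every air rat for 8 genes at 1 week, 3 at 2 weeks, 5 at 4 weeks, 6 at 8 weeks and 11 at 16 weeks. Among all genes the corresponding shares were 2.26%, 1.95%, 1.54%, 2.87% and 5.76%. Every silica rat lay below every air rat for Scd at 2 weeks and for Acot1 at 4 weeks, while the shares of all genes that did so at the 5 times were 1.08%, 1.39%, 1.91%, 2.35% and 6.6%. Acsbg1, Dgat2, Cd36, Lpl and Abcg1 were above their week's air mean in all 40 silica rats, and Sqle, Plin2 and Soat1 in 39. How many of all genes did so was not counted.

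Most sterol synthesis genes rose. In the mean of 5 weeks 7 of 9 were called higher, by 1.11-fold to 1.3-fold, and the median of the 9 was 0.22 on the log2 scale. The count was also 7 without the 5 arrays, with Fdft1 called and Cyp51 not (adjusted p = 0.0629). Dhcr7, which makes cholesterol in the last step of the pathway, Fdps, which makes farnesyl diphosphate, Mvd, which makes isopentenyl diphosphate, and Idi1, its isomerase, had the smallest p. Dhcr7 at 16 weeks had log2 intensities of 8.07, 7.90, 8.15 and 8.10 in the air rats, and a lowest of 8.40, a median of 8.58 and a highest of 9.04 in the silica rats. All 8 silica rats were above all 4 air rats at that week, whereas at 1, 2, 4 and 8 weeks the groups overlapped. The weekly differences of Dhcr7 were 0.28, 0.45, 0.20, 0.39 and 0.58 (SE 0.10 each, n = 8 and 4), and their mean was 0.38 ± 0.04 (SE), 1.3-fold, with an adjusted p of 3.43e-10.

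Fdps, whose product is the branch point to sterols, dolichol and protein prenylation, had air values at 16 weeks of 9.80, 9.68, 9.96 and 9.53 and silica values from 10.05 through a median of 10.19 to 10.73. The silica rats were all higher at 8 and 16 weeks, and none was above the highest air rat at 2 weeks. Its mean difference was 0.27 ± 0.04 (adjusted p = 7.33e-07). Mvd rose by 0.26 ± 0.05 (adjusted p = 5.58e-06), and its silica rats did not overlap with the air rats at 1, 8 and 16 weeks. Idi1 rose by 0.22 ± 0.04 (adjusted p = 1.26e-05), and 37 of 40 silica rats lay above their air mean. Sqle, the squalene epoxidase, Cyp51, a lanosterol demethylase, and Sc5d, a sterol desaturase, were called at 0.25, 0.18 and 0.15. Hmgcs1, which makes HMG-CoA at the head of the pathway, differed by -0.01 ± 0.04 (adjusted p = 0.857), and Fdft1, the squalene synthase, by 0.10 ± 0.04 (adjusted p = 0.0592). The calls of Dhcr7, Fdps, Mvd, Idi1 and Sqle in the mean of 5 weeks were kept whichever rat was left out and under each alternative setting that was run. F-tests of whether the 5 weekly differences were equal gave adjusted p from 0.14 to 0.797 for the 9 genes.

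Further enzymes of the same pathway, from a wider list, moved likewise: 6 of 11 were called, all higher, in the mean of 5 weeks, and 7 without the 5 arrays. Tm7sf2, a sterol reductase, rose by 0.32 ± 0.04 (adjusted p = 6.8e-10), Acat2, a thiolase that joins acetyl-CoA units, by 0.35 ± 0.04 (adjusted p = 3.66e-09), and Nsdhl, a sterol demethylating dehydrogenase, by 0.21 ± 0.03 (adjusted p = 1.53e-07). The difference of Tm7sf2 varied among the weeks (adjusted p = 0.0011).

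**Figure D2:**
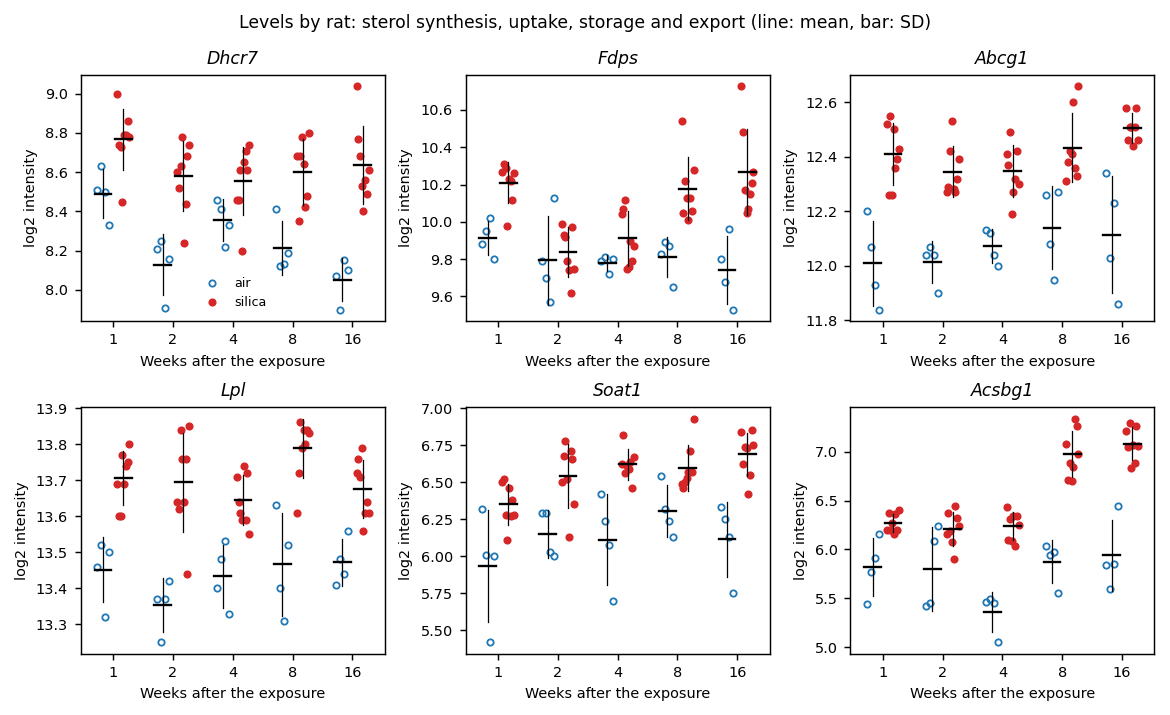
Log2 intensity of Dhcr7, Fdps, Abcg1, Lpl, Soat1 and Acsbg1 (vertical axes) in each rat against weeks after exposure, with air rats as open blue and silica rats as filled red points, lines through the group means and bars of 1 SD. The silica points of Abcg1 lie above the air points in all 5 weeks, and those of Acsbg1 separate most at 8 and 16 weeks.

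The promoters of the called genes of sterol synthesis, uptake and storage, or efflux with the smallest p are shown because sterol-controlled promoters are known to use CCAAT boxes, which bind NF-Y beside SREBP, and because REV-ERB and the clock act through short motifs that were searched too. Abcg1 and Lpl also fell under this choice. The windows run from 250 bases before to 50 bases after the start in RefSeq on GRCr8, and Fdps and Idi1 were added after their matches were seen. Capitals mark CCAAT, or ATTGG where it lies on the other strand, and the E-box CACGTG. They are Dhcr7 at chr1:208444184-208444483 on the plus strand, Soat1 at chr13:71147623-71147922 on the minus strand, Plin2 at chr5:106228969-106229268 and chr5:106228488-106228787 on the minus strand, Cd36 at chr4:18246332-18246631 on the plus strand, Fdps at chr2:176804767-176805066 on the minus strand and Idi1 at chr17:66547475-66547774 on the minus strand.
Dhcr7: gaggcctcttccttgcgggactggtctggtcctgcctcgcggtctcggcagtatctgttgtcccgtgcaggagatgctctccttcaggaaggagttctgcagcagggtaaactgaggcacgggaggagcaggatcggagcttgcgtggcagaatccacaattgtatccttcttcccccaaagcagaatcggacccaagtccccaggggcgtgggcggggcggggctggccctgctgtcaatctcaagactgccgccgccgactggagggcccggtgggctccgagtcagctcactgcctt
Soat1: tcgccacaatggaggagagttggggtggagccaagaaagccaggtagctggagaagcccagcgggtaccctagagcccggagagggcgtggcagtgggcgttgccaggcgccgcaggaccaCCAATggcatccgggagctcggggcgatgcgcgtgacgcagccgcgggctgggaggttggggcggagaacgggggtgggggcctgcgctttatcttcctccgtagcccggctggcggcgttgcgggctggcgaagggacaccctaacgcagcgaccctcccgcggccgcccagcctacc
Plin2, upstream start: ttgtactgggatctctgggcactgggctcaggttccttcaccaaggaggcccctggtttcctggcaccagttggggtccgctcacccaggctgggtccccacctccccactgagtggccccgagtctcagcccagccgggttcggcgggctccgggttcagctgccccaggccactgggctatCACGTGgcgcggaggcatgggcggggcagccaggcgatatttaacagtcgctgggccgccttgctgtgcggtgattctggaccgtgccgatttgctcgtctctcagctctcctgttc
Plin2, downstream start: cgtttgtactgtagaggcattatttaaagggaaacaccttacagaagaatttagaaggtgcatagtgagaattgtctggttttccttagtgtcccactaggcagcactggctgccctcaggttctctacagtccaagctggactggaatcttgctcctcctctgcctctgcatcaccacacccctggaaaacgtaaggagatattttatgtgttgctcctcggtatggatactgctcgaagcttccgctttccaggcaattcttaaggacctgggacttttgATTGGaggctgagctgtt
Cd36: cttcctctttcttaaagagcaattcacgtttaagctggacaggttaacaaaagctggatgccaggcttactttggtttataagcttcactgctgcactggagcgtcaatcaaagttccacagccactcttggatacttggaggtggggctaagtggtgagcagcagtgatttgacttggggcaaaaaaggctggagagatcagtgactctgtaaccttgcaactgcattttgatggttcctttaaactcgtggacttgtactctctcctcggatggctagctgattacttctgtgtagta
Fdps: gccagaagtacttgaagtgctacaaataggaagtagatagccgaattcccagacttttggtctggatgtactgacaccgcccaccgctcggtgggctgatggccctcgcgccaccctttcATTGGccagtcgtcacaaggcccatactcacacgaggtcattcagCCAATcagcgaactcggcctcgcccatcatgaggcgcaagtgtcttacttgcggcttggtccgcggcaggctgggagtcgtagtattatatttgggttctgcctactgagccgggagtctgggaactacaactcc
Idi1: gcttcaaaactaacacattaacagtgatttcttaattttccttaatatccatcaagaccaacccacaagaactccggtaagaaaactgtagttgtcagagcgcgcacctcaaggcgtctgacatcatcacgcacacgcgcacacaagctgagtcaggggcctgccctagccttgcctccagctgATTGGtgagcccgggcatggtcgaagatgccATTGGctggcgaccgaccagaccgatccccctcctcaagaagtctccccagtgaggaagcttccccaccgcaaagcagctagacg
Of the 47 genes 36 had a promoter entry, 32 of them matched by gene ID, with 42 windows. CCAAT, on either strand, was in 26 of 42 windows (61.9%), against 37.5% of all 33469 windows and 36.9% of those of the tested genes. Counted by gene and not by window, 7 of the 9 sterol synthesis genes with an entry held it, including Fdps and Idi1 with 2 matches each. These 9 are not the 9 tested genes. The 7 include Mvk and Lss, which were not analysed here, and Hmgcs1, which was not called. CACGTG was in 6 of 42 windows (14.3%) against 6.42% of all windows and 8.56% of those of the tested genes. The sterol regulatory element as TCACNCCAC was in 0 of 42 windows against 1.12%, and TAGGTCA, the monomer site of ROR and REV-ERB, in 0 against 2.63%. The DR4 repeat of LXR and the DR1 repeat of PPAR, each 2 copies of AGGTCA with 4 bases or 1 between, were in 0 of 42 windows, against 0.00598% and 0.0538% of all windows. These matches are letters in 300 bases. For the motifs without a match, the shares are so low that 0 of 42 windows cannot show a lack of sites.

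The regulators of these pathways had a median difference of 0.00. In the mean of 5 weeks 0 of 6 were called in limma, beside 35.1% of all genes. Of the 6 genes 2 had an unadjusted p under 0.05, Pparg (0.10, adjusted p = 0.0623) and Srebf1. Without the 5 arrays 1, Srebf1, was called higher. Srebf1 and Srebf2, which encode SREBP1 and SREBP2, differed by 0.06 (adjusted p = 0.0983) and 0.01 (adjusted p = 0.953), and Nr1h3, the LXR alpha receptor, had an adjusted p of 0.978. Scap, which escorts SREBPs to the Golgi, differed by -0.03 ± 0.03 (adjusted p = 0.383), and Insig2, which holds Scap back in the endoplasmic reticulum, by -0.05 ± 0.03 (adjusted p = 0.265). With each array scaled to a common median both were called lower, by -0.12 and -0.13.

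At 16 weeks 2 regulators were called. Pparg, a receptor that drives lipid storage and macrophage lipid handling, had air values of 8.36, 7.98, 8.38 and 7.96 and silica values from 8.40 through a median of 8.47 to 8.74. All silica rats were above all air rats, by a narrow margin, and the difference was 0.31 ± 0.10 (adjusted p = 0.0152). It was not called without air rat 4 (adjusted p = 0.118) or air rat 2 (0.0977), with median scaling (0.16), or with the clock genes Nr1d1 and Bmal1 as covariates (0.234). Insig2 had air values of 10.16, 10.11, 9.93 and 10.10 against silica values from 9.73 through 9.84 to 10.07, so the groups overlapped, and it differed by -0.20 ± 0.07 (adjusted p = 0.0333). The call of Insig2 ended without air rat 1 (0.124), 2 (0.087) or 4 (0.0855), and without silica rat 1 (0.0646), 4 (0.0502) or 7 (0.0661). It also ended with the replicate number as a block (0.0711), with each week fitted alone (0.0683) and with the clock genes as covariates (0.244). Of 9 further nuclear receptors and related factors 2 were higher and 2 lower in the mean of 5 weeks, beside 14.6% and 20.6% of all genes. Cebpb rose by 0.21 ± 0.03 (adjusted p = 7.41e-07) and Cebpa by 0.27 ± 0.06 (adjusted p = 0.000113), both C/EBP factors of fat and myeloid differentiation. The retinoid receptor Rxrb fell by 0.11 (adjusted p = 0.0105), and the other gene called lower was Nr1h2, the LXR beta receptor. Without the 5 arrays the counts were 3 higher and 1 lower, and Nr1h2 was not called. With the clock genes as covariates neither Nr1h2 nor Rxrb was called.

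Most fatty acid synthesis genes were slightly higher in the mean of 5 weeks, whereas at 2 weeks 3 of 7 differences were above 0. In that mean 6 of 7 were called higher, with a median of 0.13: Scd2 by 0.19 ± 0.04 (adjusted p = 1.93e-05), Elovl5 by 0.24 ± 0.07 (0.00238), Fads1 by 0.12 ± 0.02 (0.000117), Fads2 by 0.14 ± 0.04 (0.00471), Acly by 0.11 and Acaca by 0.13. Acly makes cytosolic acetyl-CoA, Acaca turns it into malonyl-CoA, Elovl5 lengthens polyunsaturated chains, and Fads1 and Fads2 are the delta-5 and delta-6 desaturases. Median scaling ended the calls of Scd2, Fads1 and Acly. With the clock genes Nr1d1 and Bmal1 as covariates all 6 calls ended, with adjusted p of 0.077 for Scd2, 0.117 for Elovl5, 0.266 for Fads1, 0.547 for Fads2, 0.599 for Acly and 0.802 for Acaca.

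Scd and Scd2 are stearoyl-CoA desaturases, which put the first double bond into saturated chains. The names follow the gene identifiers, since the table lists the present Scd as Scd1 and the present Scd2 as Scd. Scd at 2 weeks had log2 intensities of 13.08, 13.01, 13.16 and 13.13 in air, and of 11.76 to 12.89 with a median of 12.30 in silica. Every silica rat was below every air rat, while at 1 week every silica rat was above, at 12.98 to 13.32 against 12.63 to 12.93. The weekly differences of Scd were 0.28, -0.81, 0.23, 0.37 and -0.33 (SE 0.13 each), of which that at 2 weeks passed (adjusted p = 2.57e-05), and they differed among the weeks (adjusted p = 5.92e-05). Both calls were kept whichever rat was left out.

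Scd2 had differences of 0.29, -0.13, 0.34, 0.32 and 0.15 (SE 0.08 each). At 4 weeks its air rats were at 12.76, 12.89, 12.76 and 12.76 and its silica rats at 12.93 to 13.35 with a median of 13.12, without overlap (adjusted p = 0.00501, and 0.661 with median scaling). Fads2 at 16 weeks had air values of 6.21, 6.33, 6.56 and 6.37 and silica values from 6.51 through 6.65 to 7.12, of which 5 lay above all air rats (0.32 ± 0.09, adjusted p = 0.00669). At 2 weeks 6 of 8 silica rats had less Fads2 than any air rat (-0.22 ± 0.09, adjusted p = 0.126). The differences among weeks passed for Scd2 (adjusted p = 0.0326) and Fads2 (0.0331). That of Scd2 was not called without air rat 2 (0.0787) or 4 (0.0935) or silica rat 5 (0.0572) or 8 (0.0586) of week 2. That of Fads2 was not called without air rat 3 (0.117) or 4 (0.0774) or silica rat 8 (0.0516) of week 2, or air rat 1 (0.0594), 2 (0.0563) or 4 (0.0515) of week 16.

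Other genes of fatty acid synthesis and of NADPH supply, which fatty acid and sterol synthesis both draw on, were called for 4 of 10, all higher, in the mean of 5 weeks, and for 5 without the 5 arrays. Pgd, a dehydrogenase of the pentose phosphate pathway, rose by 0.26 ± 0.03 (adjusted p = 1.45e-11), and Me1, the malic enzyme, by 0.37 ± 0.04 (4.81e-10). Of 13 genes of fatty acid oxidation 2 were higher and 1 lower, beside 14.6% and 20.6% of all genes. Among them, the mitochondrial Hadhb rose by 0.17 ± 0.03 (adjusted p = 8.22e-06) and Acadvl fell by 0.09 (0.00658).

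Genes of acyl-CoA activation and glycerolipid synthesis held the highest fold of the 40 genes in the mean of 5 weeks, that of Acsbg1. In that mean 4 of 8 were called, all higher, and the median of the 8 was 0.10. Acsbg1, an acyl-CoA synthetase of the bubblegum family that activates long and very long chains, had air values of 5.84, 5.60, 5.85 and 6.45 at 16 weeks and silica values from 6.83 through a median of 7.06 to 7.29. The silica rats were above all air rats at 1, 4, 8 and 16 weeks, and 3 of 8 were above at 2 weeks. Its differences grew from 0.45 and 0.41 at 1 and 2 weeks to 0.87, 1.10 and 1.14 at 4, 8 and 16 weeks (SE 0.13 each), a slope of 0.21 per doubling of weeks (adjusted p = 0.00326, beside 1.77% of all genes called, 0.992% with a rise and 0.776% with a fall). The mean of 5 weeks was 0.80 ± 0.06, 1.74-fold (adjusted p = 1.46e-16). The call at 1 week ended without air rat 1 (0.228), 2 (0.109) or 3 (0.0882) or silica rat 1 (0.0521), 2 (0.0578), 6 (0.0612) or 8 (0.0592). The call at 2 weeks ended without air rat 1 (0.206) or 2 (0.173) or silica rat 2 (0.0636), 6 (0.0698), 7 (0.0599) or 8 (0.0551). These calls also ended under 9 and 10 of 17 alternative settings, and those at 4, 8 and 16 weeks were kept under all of them and without any 1 rat. The signal was low, and the mean was 0.51 with no background correction and 0.35 on the authors' values, with the call kept. On the authors' values the mean of Acsl4 was larger than that of Acsbg1, at 0.42 or more.

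Dgat2, which adds the last acyl chain of triacylglycerol, rose by 0.42 ± 0.04, 1.34-fold (adjusted p = 4.22e-14). At 16 weeks its air rats were at 7.66, 7.47, 7.66 and 7.81 and its silica rats at 8.27 to 8.46 with a median of 8.36. The groups were apart at 1 and 16 weeks and overlapped at 2, 4 and 8 weeks. The row passed detection on 40 of 60 arrays, and its detection p-values were not in the steps of most rows. Acsl4, which prefers arachidonic acid, rose by 0.50 ± 0.11, 1.41-fold (adjusted p = 0.000368), with overlapping groups in all 5 weeks and no weekly call. Acsl5, another long-chain synthetase, rose by 0.09 (adjusted p = 0.0132), and this ended with median scaling. Acsl1, Lpin1, a phosphatidate phosphatase, and Dgat1, the other diacylglycerol acyltransferase, were not called at any week.

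Acot1, a thioesterase that frees fatty acids from acyl-CoA and a known target of PPAR alpha, changed sign between weeks. At 2 weeks its air rats were at 6.89, 6.10, 6.09 and 6.13 and its silica rats at 6.15 to 7.78 with a median of 6.92. At 4 weeks its air rats were at 7.33, 7.43, 6.73 and 6.55 and its silica rats at 5.79 to 6.49 with a median of 6.23. The groups overlapped at 2 weeks, where 4 of 8 silica rats were above all air rats, and all silica rats were lower at 4 weeks. The differences were 0.67 ± 0.22 (adjusted p = 0.0445) and -0.81 ± 0.22 (adjusted p = 0.0175), and the F-test among weeks passed (0.0261). The call at 2 weeks ended without air rat 2 (0.0931), 3 (0.2) or 4 (0.181) or silica rat 2 (0.0768), 3 (0.073), 7 (0.0603) or 8 (0.108). The call at 4 weeks ended without air rat 1 (0.0659) or 2 (0.0643), and that among weeks without air rat 2 (0.0548), 3 (0.081) or 4 (0.0762) of week 2 or air rat 1 (0.0553) of week 4. Of 15 other genes of phospholipid synthesis and remodelling 7 were called, all higher, in the mean of 5 weeks. They included Lpcat3 (0.25 ± 0.02, adjusted p = 1.24e-12), Lpcat1 (0.23 ± 0.03, adjusted p = 8.98e-08) and Cept1 (0.13 ± 0.02, adjusted p = 1.15e-05), which reacylate lysophospholipids or make phosphatidylcholine and phosphatidylethanolamine. Lpcat1 is also one of the type II cell markers, whose list mean was higher in silica rats by 0.22, 0.28, 0.19, 0.20 and 0.29 at the 5 weeks. The part of these markers in the lipid results was not tested.

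Genes of lipid uptake and storage were mostly higher. Of the 5 genes 4 were called higher in the mean of 5 weeks, with a median of 0.22. Lpl, the lipoprotein lipase that frees fatty acids from circulating triglyceride, had air values at 2 weeks of 13.37, 13.25, 13.37 and 13.42 and silica values from 13.44 through 13.70 to 13.85. The silica rats were above all air rats at 1, 2 and 4 weeks and 7 of 8 were above at 8 and 16 weeks. It was called in all 5 weeks at 0.25, 0.34, 0.21, 0.32 and 0.20 (SE 0.06 each), and the mean was 0.27 ± 0.03 (adjusted p = 3.95e-12). The call at 1 week ended without air rat 3 (0.0831) and that at 4 weeks without air rat 4 (0.145) or 1 (0.0536). With median scaling all 5 weekly calls of Lpl ended (adjusted p from 0.246 to 0.822), and that of the mean held.

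Soat1, which esterifies cholesterol for storage and is known from macrophage foam cells, had air values of 6.33, 6.25, 6.13 and 5.75 and silica values from 6.42 through 6.74 to 6.85 at 16 weeks. The groups were apart at 4 and 16 weeks. Its mean difference was 0.44 ± 0.05, 1.35-fold (adjusted p = 1.04e-09). On the authors' values it was 0.20, with the call kept. Cd36, a scavenger receptor that takes up fatty acids and oxidised lipoproteins, rose by 0.22 ± 0.03 (adjusted p = 4.16e-08). At 2 weeks it was at 12.25, 12.11, 11.86 and 11.96 in air and at 12.28 to 12.37, with a median of 12.33, in silica, without overlap. Plin2, which coats lipid droplets, rose by 0.22 ± 0.03 (adjusted p = 2.42e-09). At 16 weeks Plin2 was at 11.92, 11.85, 11.99 and 11.72 in air and at 12.22 to 12.48 with a median of 12.31 in silica, and all silica rats were higher (0.46 ± 0.06, adjusted p = 5.26e-08). Median scaling ended the calls of Cd36 (adjusted p = 0.082) and Plin2 (0.0877) in the mean of 5 weeks.

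Fabp4, a fatty acid carrier of adipocytes, macrophages and some capillary cells, changed at 16 weeks. Its air values were 9.44, 9.29, 9.13 and 8.84, and its silica values ran from 10.06 through a median of 10.39 to 10.75. All silica rats were higher at that week, and the groups overlapped at 1, 2, 4 and 8 weeks. The difference was 1.27 ± 0.19 at 16 weeks (adjusted p = 5.74e-07), against -0.11, -0.33, 0.01 and 0.17 before, and it differed among weeks (adjusted p = 0.000701) and grew with the doubling of weeks (0.33, adjusted p = 0.000766). These calls were kept whichever rat was left out. Of the adipocyte markers Adipoq was detected on 1, Plin1 on 2 and Lep, Retn and Ucp1 on 0 of 60 arrays. The 4 measured were Cfd, which was higher by 0.30 at 16 weeks, Lipe, which fell by 0.48, and Cidec and Pck1, which were not called. Their mean differed by 0.01 at 16 weeks (exact permutation test over 495 splits, two-sided, p = 0.824). Endothelial markers fell by 0.37 at that week (exact permutation p = 0.00202, the smallest that 495 splits can give; adjusted over 55 tests 0.00556). Macrophage markers were higher by 0.75 (exact permutation p = 0.00202), and heart muscle markers fell by 4.08 (exact permutation p = 0.00202), with list means of 5.18 to 11.08 in air rats and 5.10 to 11.67 in silica rats of all weeks. The part of these cells in the Fabp4 result was not tested.

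Among other genes of lipid droplets and lipolysis 3 of 7 were higher and 1 lower in the mean of 5 weeks, beside 14.6% and 20.6% of all genes. Without the 5 arrays 3 were higher and 2 lower. Abhd5, an activator of triglyceride lipase, rose by 0.40 ± 0.05 (adjusted p = 3.03e-09), Cidea, a droplet protein, rose by 0.25 ± 0.05 (0.000188), and Lipe, the hormone-sensitive lipase, fell by 0.27 (1.21e-06). Of 9 other fatty acid transport genes 1 was called, beside 35.1% of all genes. It was Gpihbp1, which anchors Lpl on capillary endothelium, fell by 0.35 (adjusted p = 4.65e-05) and is one of the endothelial markers. Of 10 genes of sterol uptake and intracellular movement 4 were higher and 1 lower (5 and 1 without the 5 arrays), beside 14.6% and 20.6% of all genes. Among those higher were the lysosomal sterol carrier Npc2 (0.25 ± 0.03, adjusted p = 4.25e-11) and 2 sterol transfer proteins, Gramd1b (0.18 ± 0.03, adjusted p = 8.4e-08) and Stard3 (0.15 ± 0.03, adjusted p = 1.06e-05). Over all 88 tested of 104 other lipid genes 29 were higher and 7 lower in the mean of 5 weeks, beside the 35.1% of all genes. There were 33 higher and 7 lower without the 5 arrays, and 21 and 4 with the clock genes as covariates.

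Among efflux and lipoprotein genes 1 of 5, Abcg1, was called higher in the mean of 5 weeks, beside 14.6% of all genes. Abcg1, the transporter that passes cholesterol to HDL and clears it from alveolar macrophages, had at 16 weeks air values of 12.34, 12.03, 12.23 and 11.86 and silica values from 12.44 through 12.51 to 12.58. At 1 week they were 12.20, 12.07, 11.93 and 11.84 in air and 12.26 to 12.55, with a median of 12.41, in silica. All 8 silica rats lay above all 4 air rats at all 5 weeks. The differences were 0.40, 0.33, 0.28, 0.29 and 0.39 (SE 0.07 each), called in all 5 weeks, and the mean was 0.34 ± 0.03, 1.26-fold (adjusted p = 6.46e-13). The call at 4 weeks ended without air rat 3 (0.069) or 4 (0.0778) and that at 8 weeks without air rat 3 (0.0692). With median scaling all weekly calls of Abcg1 ended (adjusted p from 0.0646 to 0.705), and the mean held.

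Abca1, which loads cholesterol on apolipoprotein A-I and is, like Abcg1, a known LXR target, differed by 0.06 (adjusted p = 0.211). Apoc1 and Pltp, a small apolipoprotein and the phospholipid transfer protein, had adjusted p of 0.99 and 0.518. Apoe, a ligand of lipoprotein receptors that macrophages secrete, differed by -0.13 ± 0.05 (adjusted p = 0.0335), with overlapping groups in all weeks. Its call ended without the 5 arrays (0.061) and without any of 7 air rats: rats 1, 3 and 4 of week 2 (0.0508, 0.0503 and 0.0504), rat 4 of week 1 (0.0546), rat 3 of week 4 (0.0871), rat 3 of week 8 (0.0633) and rat 4 of week 16 (0.0782). It also ended under 8 of 16 alternative settings. Of 4 enzymes that oxidise sterols, Ch25h, which makes 25-hydroxycholesterol, rose by 1.05 ± 0.07, 2.07-fold (adjusted p = 2.34e-18), and Cyp27a1, which makes 27-hydroxycholesterol, fell by 0.24 (adjusted p = 2.42e-11). The list mean of macrophage markers was higher in every week, by 0.46, 0.52, 0.38, 0.61 and 0.75 from the earliest to the latest week (exact permutation tests over rats, adjusted p from 0.00556 to 0.00966). The list mean ranged from 8.17 to 8.95 in air rats and from 8.57 to 9.47 in silica rats. Of the 15 listed macrophage markers 11 were tested, and Marco, a scavenger receptor of alveolar macrophages, was detected on 0 arrays. The part of macrophages in these results was not tested.

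The silica effect differed among the 5 weeks for 8 of 40 genes, beside 2.1% of all genes. They were Scd, Fabp4, Acsbg1 (adjusted p = 0.0177), Acot1, Scd2, Fads2, Plin2 (0.0378) and Dgat2 (0.0496). Without the 5 arrays that stood apart the count was 5. It was also 5 without air rat 1 or 2 of week 16, air rat 1 of week 4 or silica rat 8 of week 2, and 4 without air rat 3 or 4 of week 2. The tests of Scd, Fabp4 and Acsbg1 passed whichever rat was left out, and that of Dgat2 failed in 43 of 60 such fits.

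Clock genes, which cycle with time of day and steer lipid synthesis in liver, also differed between silica and air. Nr1d1, the repressor REV-ERB alpha, had air values of 7.44, 7.90, 7.84 and 7.78 and silica values from 8.71 through 9.76 to 10.12 at 2 weeks, and all silica rats were higher. At 1, 4 and 8 weeks all silica rats had less Nr1d1 than any air rat. Its differences were -1.57, 1.90, -1.68, -1.79 and -1.72, and they differed among weeks (adjusted p = 4.36e-07). Bmal1, the activator that Nr1d1 represses, differed by 0.17, -0.69, 0.33, 0.14 and -0.21 (adjusted p among weeks 6.84e-07), and Cry1 by 0.50, -0.75, 0.62, 0.44 and 0.23 (6.18e-08). Scd was lower at 2 weeks, when Nr1d1 was higher. At 16 weeks, when Nr1d1 was lower, Scd also had a difference of -0.33 (adjusted p = 0.0643), with 0 of 8 silica rats above the air mean. In every week the difference of Scd had the same sign as that of Bmal1. The sign of Scd was opposite to that of Nr1d1 in all weeks but week 16. The time of day of killing was not given in the sources used here.

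**Figure D3:**
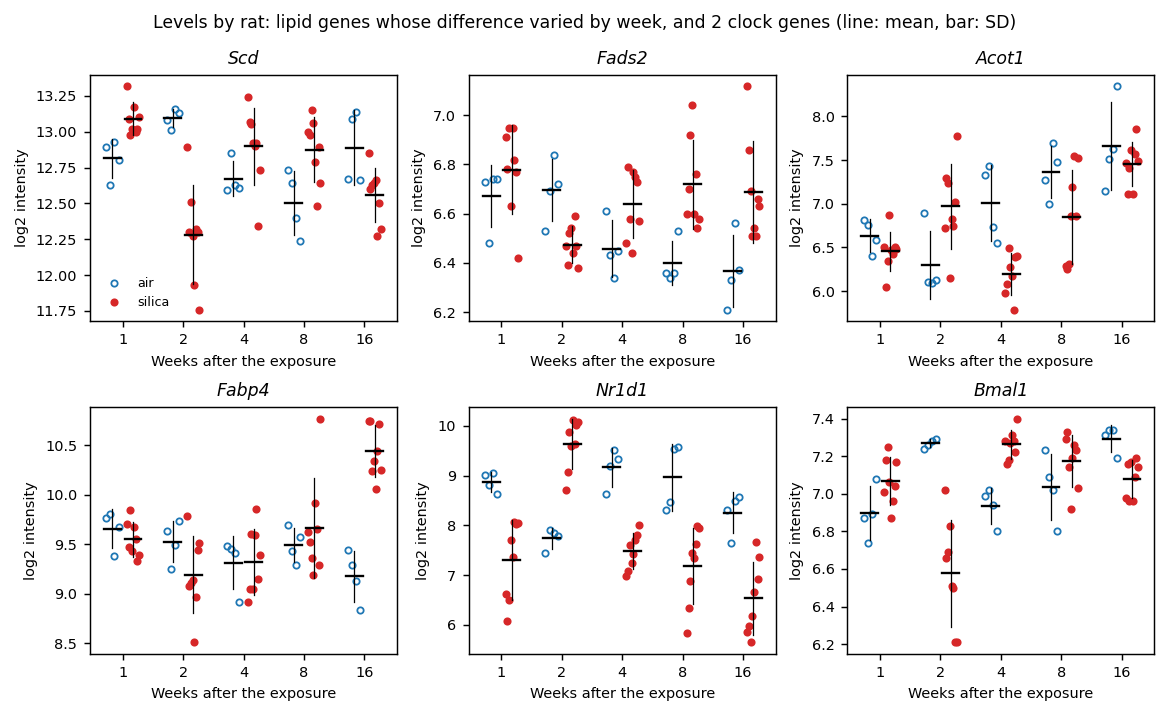
Log2 intensity of Scd, Fads2, Acot1, Fabp4, Nr1d1 and Bmal1 (vertical axes) in each rat against weeks after exposure, with air rats as open blue and silica rats as filled red points, lines through the group means and bars of 1 SD. Scd and Bmal1 are lower and Nr1d1 is higher in silica rats at 2 weeks, most silica points of both Scd and Nr1d1 lie low at 16 weeks, and Fabp4 separates at 16 weeks.

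With Nr1d1 and Bmal1 levels as covariates in the fit, 13 genes were called in the mean of 5 weeks, 12 higher and 1 lower, beside 22.2% of all genes. Of the 23 original calls 12 were kept: Acsbg1, Soat1, Dgat2, Dhcr7, Abcg1, Fdps, Lpl, Mvd, Sqle, Cd36, Plin2 and Idi1. Scd was called lower, by -0.22 (adjusted p = 0.0195). The difference of Scd at 2 weeks was -0.30 (adjusted p = 0.42), while at 16 weeks it was -0.60 and called (adjusted p = 0.00542). Those of Acot1 at 2 and 4 weeks were -0.03 and -0.32, neither of them called. The test among weeks then passed for 1 gene, Fabp4, beside 0.424% of all genes. Nr1d1 was itself called at each of the 5 weeks and Bmal1 at 2 and 4 weeks. The slopes on these 2 genes came from the variation between rats within groups. The fit takes off what those slopes give for the silica differences of Nr1d1 and Bmal1, so part of a silica effect can go with it. A difference that follows the 2 genes only across weeks, and not within groups, stays in.

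**Figure D4:**
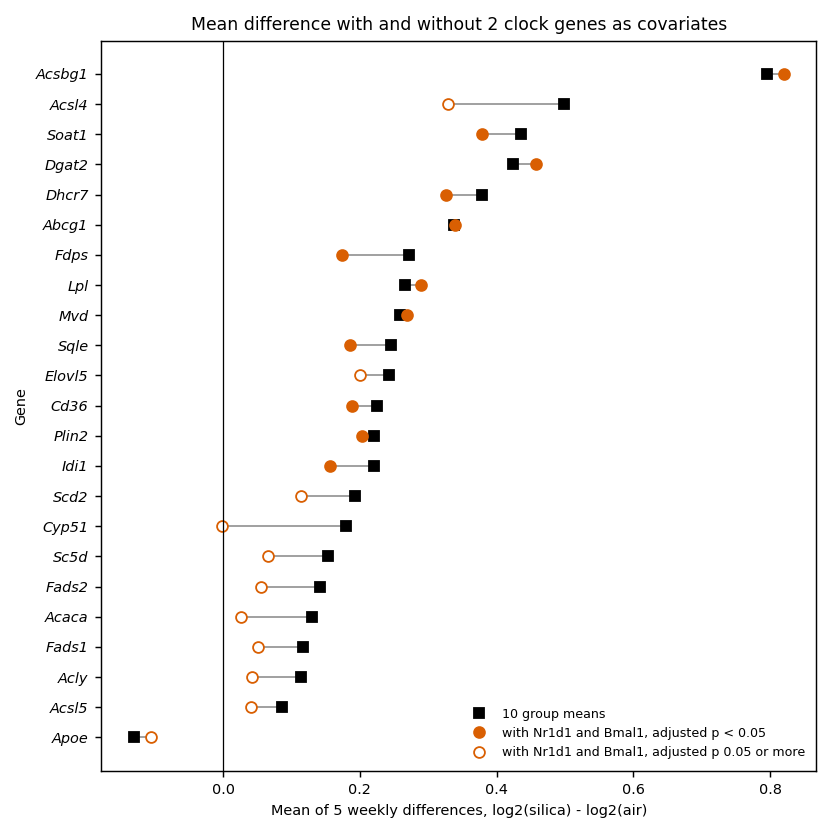
Mean of the 5 weekly differences (horizontal axis, log2 intensity, silica minus air) of the 23 called genes without and with Nr1d1 and Bmal1 as covariates. Acsbg1 stays at the right end under both fits, and 12 of the 23 genes keep their call.

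In air rats alone few lipid genes changed over the 16 weeks. A slope per doubling of weeks was called for 3 of 40 genes, beside 1.96% of all genes (0.74% rising, 1.22% falling). Acot1 rose by 0.31 (adjusted p = 0.0004), and Hmgcs1 and Fads2 fell by 0.09 each (0.0392 and 0.0258). The count was 1 without air rat 1 or 3 of week 1 or air rat 1 or 2 of week 16. The 5 air means were called unequal for Acot1 (adjusted p = 0.00268) and Hmgcs1 (0.0474), beside 1.67% of all genes, and in 35 of the 60 fits without 1 rat the count was 1. Without the 5 silica arrays the counts were 3 and 2.

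Within groups of rats, sterol synthesis genes varied together. Over values minus the group mean the median correlation of the 36 pairs of the 9 genes was 0.441, against 0.1 over pairs of all 40 genes and -7.92e-05 over all genes tested, and 38.9% of these pairs exceeded 0.5 against 1.55%. These correlations share arrays, RNA amounts and cell content. Of 10 pairs listed 6 could be tested over the 60 rats, with 100000 permutations within groups and p-values adjusted over the 6. Idi1 and Sqle had r = 0.71 and rho = 0.60 (adjusted permutation p = 3e-05 and 6e-05), and r was 0.60 without the 2 rats farthest from the median of Idi1. Hmgcs1 and Fdft1 had r = 0.64 and rho = 0.56 (adjusted p = 3e-05 and 9e-05; 0.61 without 2 rats). Lpl and Pparg had r = 0.44 and rho = 0.40 (adjusted p = 0.0068 and 0.012; 0.38 without 2 rats). Cd36 and Fabp4 had r = 0.18 and rho = 0.26 (adjusted p = 0.2 and 0.078), Abca1 and Abcg1 had r = -0.06 and rho = 0.00 (0.64 and 0.99), and Insig2 and Nr1d1 had r = 0.12 and rho = 0.09 (0.47 and 0.65). With each array scaled to a common median, Abca1 and Abcg1 had r = 0.67 and Insig2 and Nr1d1 had r = -0.30.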

How the data were processed

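Lung RNA of 60 rats was measured on 1 array each. Per the file headers, the deposited table holds for each row the mean bead intensity and a detection p-value. A second deposited table holds values on a log2 scale that the authors processed, which served as an alternative. Each of its 60 columns resembled its own array most (correlation of at least 0.969), and its column medians were 7.78 to 7.81. How it was normalized and centred is not given in the sources used here. The submitters' processing notes name limma, lumi and BeadStudio, with no version. All value columns could be tied to a rat by the labels.

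The table had 21794 lines, 2 of them blank. Rows were named by gene identifier (16866), accession (23) or symbol (4786) through a RefSeq table of assembly GRCr8, used for names, and 117 stayed unnamed. From the steps of the detection p-values, 825 negative control types were inferred (tolerance 0.01, 576 rows outside the steps), and their mean and spread served normexp background correction with an offset of 16. Quantile normalization and log2 followed. Genes detected on at least 4 arrays at p under 0.05 were fitted with limma 3.58.1 in R 4.3.3, as 10 group means with 50 residual degrees of freedom. Contrasts were silica minus air per week, the mean and the slope per doubling of weeks of these 5, the slope in air, and F-tests among weeks. The fit was tested on simulated data.

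Named in full were, per role, up to 4 genes with the smallest adjusted p in the mean of 5 weeks, up to 2 more by the F-test if called, or the 2 brightest where none was called. From the wider lists up to 3 genes by the mean and 1 by the F-test were named, and the remaining members by a value, range or count. Pparg, outside this rule, was given in full after its values were seen. Some genes that the rule names in the wider lists are not reported here. Promoters came from the called sterol, uptake and efflux genes with the smallest p. The genes, lists and tests were chosen with earlier results of these data known. Alternatives were cyclic loess or median scaling, normexp without control beads (offset 50) or no correction at all, the values the authors processed, detection on 30 arrays or no such filter, the mean of a gene's rows, trend and robust eBayes, array weights, each week alone, the replicate number as a block, clock genes or adipocyte markers as covariates, an adjusted p under 0.01, and leaving out each rat. The array order as a covariate and leaving out the 5 arrays that stood apart were added after seeing the data. The labels number the rats within each group, and the p-values of the fit judge differences against the spread between rats within groups.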

Additional observations from a re-analysis of the deposited data

Results flagged for a closer look

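Of 230 gene and group combinations of the 23 genes named in full, 16 held a rat whose value lay far from the rest of its group by Dixon's test, which chance gives in about 5% of groups, and none of the 16 was on the 5 arrays that stood apart. In air rats these were Insig2 at 9.92 in rat 3 of week 2, Acot1 at 6.89 in rat 1 and Apoe at 12.28 in rat 2 of week 2, Fads2 at 6.48 in rat 2 of week 1 and at 6.53 in rat 4 of week 8, and Acsl5 at 10.43 in rat 4 of week 16. Air rat 2 of week 4 was highest for 3 genes, Scd2 at 12.89, Scd at 12.85 and Cd36 at 12.37. Air rat 4 of week 4 was lowest for Acsbg1 at 5.05 and Fabp4 at 8.92. In silica rats they were Mvd at 8.69 and Scd2 at 13.28, both in rat 1 of week 16, Fads1 at 10.66 in rat 1 and Dgat2 at 7.40 in rat 5 of week 2, and Fabp4 at 10.77 in rat 8 of week 8.

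The silica difference varied among the 5 weeks, by limma's F-test adjusted over all genes, for Scd (5.92e-05), Fabp4 (0.000701), Acsbg1 (0.0177), Acot1 (0.0261), Scd2 (0.0326), Fads2 (0.0331), Plin2 (0.0378) and Dgat2 (0.0496).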

How the results depend on the processing

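Of the 23 calls in the mean of 5 weeks, 10 (Mvd, Idi1, Fdps, Sqle, Dhcr7, Acsbg1, Dgat2, Lpl, Soat1 and Abcg1) were kept under all alternatives and without any 1 rat. With median scaling the numbers of genes called at 1, 2, 4 and 8 weeks were 1, 2, 3 and 2, against 8, 11, 7 and 11, with 2 for the differences among weeks and 1 for the air means. With Nr1d1 and Bmal1 as covariates they were 3, 0, 3, 5 and 10 at the 5 weeks in order, 13 in the mean, 1 among weeks, 1 for the air slope and 1 for the air means. At 2 weeks that limma fit left 13 genes at an unadjusted p under 0.05. An adjusted p under 0.01 left 4, 6 and 3 at 1, 2 and 4 weeks, 2 among weeks, and 1 each for the air slope and air means. Array weights gave 7 at 2 weeks and 5 among weeks. Fits of each week alone gave 6 at 2 weeks and 5 at 8 weeks. Without the 5 arrays that stood apart 5 genes differed among weeks. The air means count was 1 with no detection filter and 1 with the array order as a covariate. Leaving out 1 rat gave 2 to 10, 6 to 12, 3 to 9, 5 to 12 and 13 to 18 calls at the 5 weeks in order, 22 to 25 in the mean, 2 to 3 for the slope, 4 to 8 among weeks, 1 to 3 for the air slope and 1 to 2 for the air means. With median scaling the correlations of Abca1 with Abcg1 and of Insig2 with Nr1d1 turned sign, to 0.666 and -0.2975, and that of Cd36 with Fabp4 passed its test at 0.5863. The causes were not tested.

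Rats with the same replicate number are different animals, and their deviations had correlations of -0.349 to 0.393 over 20 pairs, 5 of them over 0.1. The main fit did not treat them as pairs. Such correlations cannot settle whether rats of the same number share an effect. With the replicate number as a block 10, 9, 10, 15 and 18 genes were called at the 5 weeks and 26 in the mean. A block for the slide was not run, since neither headers nor labels name one. Weak signals limit genes such as Acsbg1, Soat1, Cyp51, Acaca and Fads2, whose differences depend in size on the background correction. Genes with several rows were represented by 1 of them.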
